A study of Mus musculus with 8 samples.

Results

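Complement and coagulation proteins are the plasma proteins of the clotting cascade, its brakes, the clot-dissolving system and the complement cascade. Their mRNAs were followed in mouse liver as 45 genes chosen by name, 24 of coagulation and fibrinolysis and 21 of complement, among 18120 genes measured on the arrays. All probes carrying a current or older symbol of these genes were taken, 71 of 41174 probes, of which 65 passed the filter on dim signal, and each of the 45 genes kept at least 1 probe. By textbook source, 35 of the proteins are made mainly by hepatocytes, 3 (the chains of C1q) by macrophages, and 7 by endothelium, fat or several cell types.

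Clotting runs through a chain of protease zymogens, started by tissue factor or by the contact proteins, that ends in thrombin, which turns fibrinogen into fibrin; anticoagulants stop it and plasmin dissolves the clot. Complement is tagged onto targets by C1q or by the mannose-binding lectins, is amplified at C3 by the alternative pathway, and ends in the terminal components that assemble a pore in the target membrane. Most of these proteins are secreted by hepatocytes, and their genes are read by liver-enriched factors such as HNF1, HNF4 and C/EBP, while C1q comes largely from macrophages, including the Kupffer cells of the liver. Dicer1 is the RNase that cuts microRNA precursors, and N-ethyl-N-nitrosourea (ENU) is an alkylating mutagen.

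The 4 groups were Albumin-Cre;Dicer1loxP/loxP mice given ENU (KO ENU), Dicer1loxP/loxP littermates given ENU (WT ENU), Albumin-Cre;Dicer1loxP/loxP mice given dimethylsulfoxide (KO vehicle) and Dicer1loxP/loxP littermates given dimethylsulfoxide (WT vehicle). All were C57BL/6, 6 months of age and labelled female, and WT mice carry the floxed allele too. The albumin promoter drives Cre in hepatocytes, so the deletion is meant for these cells alone. ENU was injected intraperitoneally at 120 mg/kg in 2 ml/kg and the tissue was taken 15 days later; the day is not given for vehicle mice, nor is the number of mice behind an RNA sample.

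Each group had 2 one-colour arrays, and these differed by about as much as the noise between spots. Over 144 to 178 probes spotted repeatedly, their median absolute standardised difference was 0.596 to 0.725, against 12.4 to 28.4 between groups. Spot noise alone would give 0.690, and the KO vehicle pair, at 0.725, was the only pair above that value. Of all spots, 54.7 to 69.3% were well above background on an array and none was saturated; the number of arrays limits the precision. The 8 arrays were therefore counted as 4 RNA samples, 1 a group. KO was set against WT in a limma fit of the 4 samples on genotype plus treatment, and "rose" and "fell" below stand for an adjusted p under 0.05 in that fit; a difference between 2 groups is a description with no test. The ENU arrays shared 1 slide and the vehicle arrays the other, and KO and WT kept separate places on both, which means that ENU cannot be told apart from slide, nor genotype from place on the slide. Dicer1 had log2 levels, relative to each array's 75th percentile as throughout, of 0.17 in KO and 0.42 in WT after ENU, and 0.63 in KO and 1.12 in WT on vehicle, lower in KO within each treatment. It differed by a log2 of -0.38 ± 0.19 between KO and WT (SE, adjusted p = 0.196), with no record in the sources used here of whether its probe lies in the deleted part. Contrary to the label of female mice, 4 of 4 Y-linked genes had a probe well above background on all 8 arrays.

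In KO livers 24 of the 45 genes fell and 5 rose over both treatments, while 15.3% of all genes fell and 16.9% rose. The genes that fell were 22 of the 35 hepatocyte-made ones together with F8 and Cfd, and those that rose were C1qa, C1qb, C1qc, Plat and Plau. For Plau and Cfd the lower group was not well above background, so that their calls rest on background signals and their size is given as a bound. All 35 hepatocyte-made genes lay below 0 in KO against WT, after ENU as well as on vehicle. With quantile normalization 11 of the 35 lay above 0 after ENU, 9 on vehicle and 10 over both treatments. With the mean of all probes these numbers were 2, 1 and 1. After ENU 1 lay above 0 with normexp background correction, and 1 without array a of WT ENU. The median log2 difference of the 35 over both treatments was -1.09, against -0.12 for all genes. By group, 20 of the 45 genes were past 2-fold lower and 4 past 2-fold higher in KO against WT after ENU, where 14.2% and 16.2% of all genes were. On vehicle these counts were 18 lower and 5 higher, where 11.1% and 17.3% of all genes were. The plot of differences by role shows C1q and the plasminogen activators on the right and the hepatocyte products on the left.

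The scaling between arrays bears on these counts. With quantile normalization 13 of the 24 genes still fell, 11 of them hepatocyte-made, and 6 rose, the sixth being Vwf, where 10.6% of all genes fell and 15% rose. The 11 whose call ended were F2, Fga, Plg, Proc, Proz, C1ra, C1s, C5, C9, Mbl2 and C4bp, and 10 hepatocyte-made genes that had not been called (F10, F12, Fgb, Kng1, Cpb2, C2, C3, Cfb, Cfi and Masp1) had a log2 difference above 0, between 0.03 and 0.43. With median centring 28 fell and 5 rose, where 27% of all genes fell and 15.1% rose and the median of all genes moved to -0.33. Each value below is for scaling to the 75th percentile, and a change of C6, C8a, C8b, C8g, F5, F7, F8, F9, F11, Klkb1, Masp2, Mbl1, Cfd, Plat, Plau or a C1q chain was called under quantile normalization and median centring as well.

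**Figure D1:**
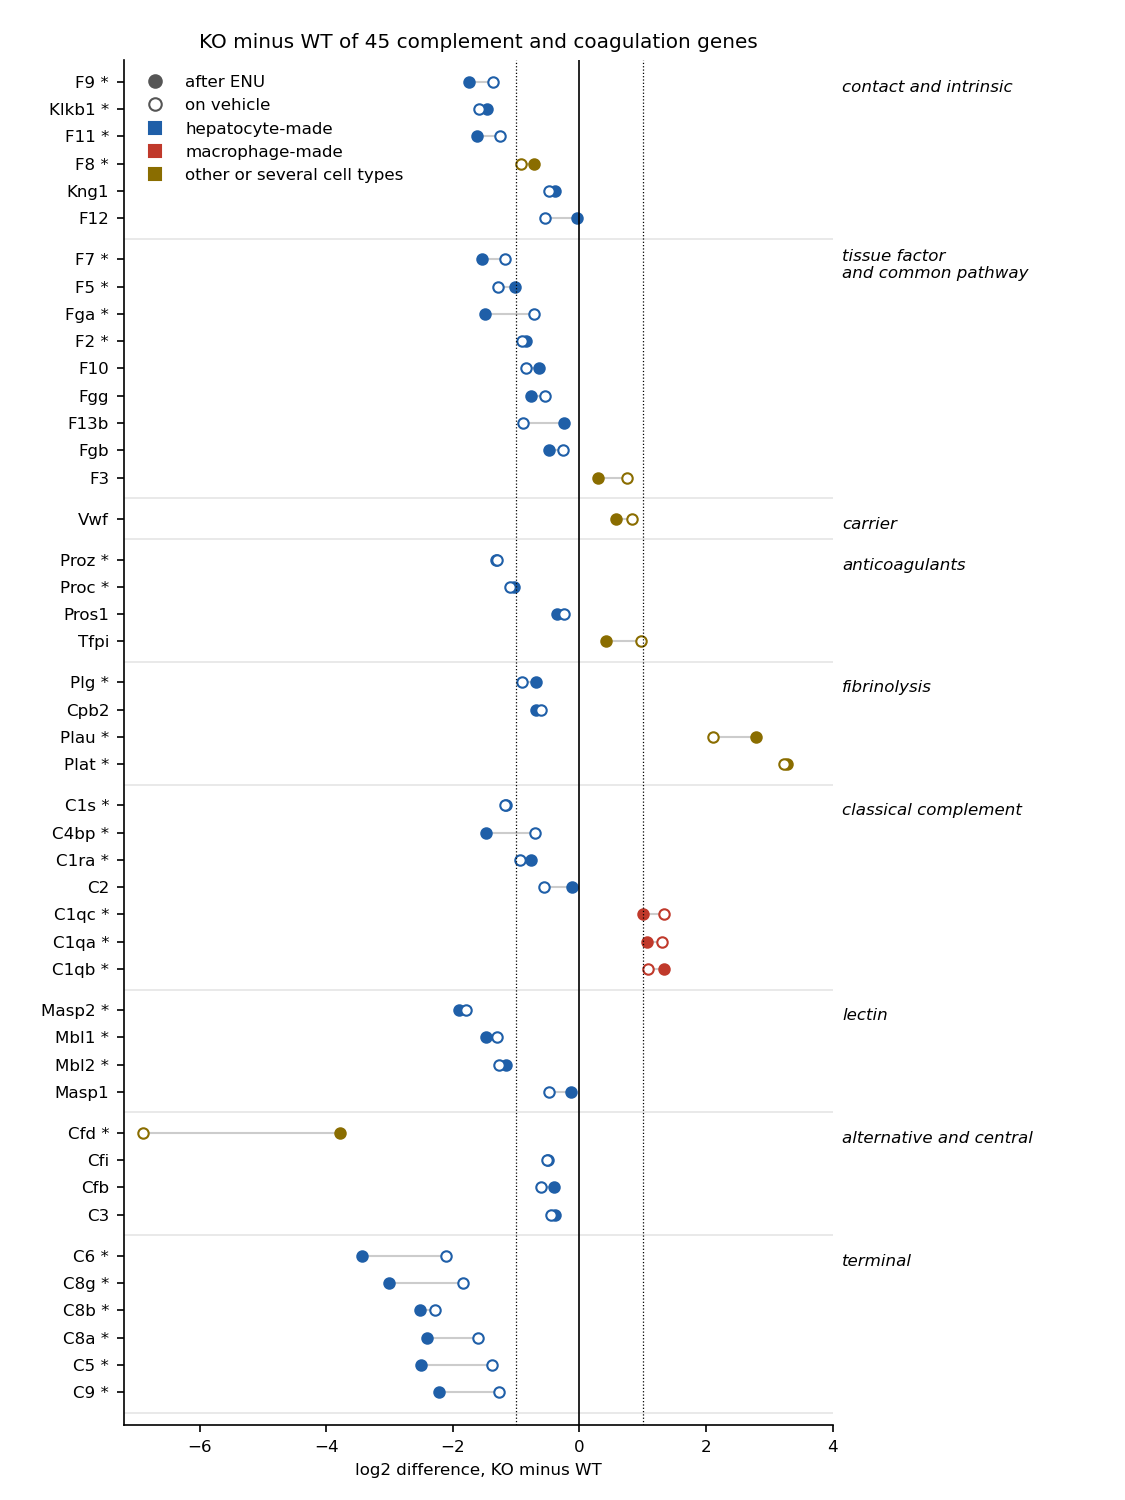
Log2 difference in KO against WT (horizontal axis) for each of the 45 genes, by role; filled points are after ENU and open points on vehicle, colours give the usual cell source, dotted lines mark 2-fold and an asterisk marks an adjusted p under 0.05 over both treatments. All 35 hepatocyte-made genes lie left of 0 and the 3 C1q chains lie right of it. Over both treatments 10 of the 35 lie right of 0 with quantile normalization and 1 with the mean of all probes. WT for Plau and KO for Cfd were not well above background.

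Genes that mark whole cell types moved in the same livers. Of 13 measured markers of mature hepatocytes 9 fell and none rose in KO, with 4 falling under quantile normalization, and the summed signal of the list was 1132 to 1163 times the array's 75th percentile in KO and 1965 to 2043 in WT after ENU, and 1176 to 1223 in KO and 2326 to 2328 in WT on vehicle. Albumin itself, the major plasma protein of the hepatocyte, differed by a log2 of -0.56 ± 0.18 (SE, adjusted p = 0.0856). In whole liver, fewer hepatocytes and less of an mRNA in each hepatocyte cannot be told apart. The part of hepatocyte number in the lower levels of the clotting and complement genes was not tested.

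Among the contact and intrinsic proteins, 4 of 6 fell in KO. F9, the vitamin K-dependent protease missing in haemophilia B, had log2 levels of 1.70 in KO and 3.44 in WT after ENU, and 2.54 in KO and 3.90 in WT on vehicle. Both KO samples lay below both WT samples, and the difference over both treatments was -1.55 ± 0.20 (SE, adjusted p = 0.0172). Here and below, such an order of the samples is a description alone, and the share of all genes with it is not given. Klkb1, plasma prekallikrein, stood at 2.23 in KO and 3.70 in WT after ENU, and 1.60 in KO and 3.18 in WT on vehicle, a fall of nearly the same size in either treatment (-1.52 ± 0.18, adjusted p = 0.0152). F11, which prekallikrein resembles in sequence, fell by 1.44 ± 0.20 on the log2 scale (adjusted p = 0.0190). F8, the cofactor of F9 and a product of liver sinusoidal endothelium, had log2 levels of -1.69 in KO and -0.98 in WT after ENU, and -2.26 in KO and -1.34 in WT on vehicle. It fell by 0.81 ± 0.19 (adjusted p = 0.0442), a call that ended without array a of WT ENU (adjusted p = 0.0525). Of 13 endothelial markers 1 fell and none rose, and their summed level was 57.6 to 59.5 in KO and 81.6 to 84.0 in WT after ENU, and 62.8 to 64.1 in KO and 71.6 to 71.8 in WT on vehicle. F12, the zymogen that starts the contact pathway, and Kng1, the kininogen that carries prekallikrein and F11, gave -0.29 ± 0.22 and -0.43 ± 0.18 (adjusted p = 0.346 and 0.143) and did not pass the test.

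The stretch before the F9 start site is shown because it held letters of 3 of the liver motifs that were searched, more than that of any other member. It lies at chrX:59999344-59999463 on the + strand of GRCm38.p6 in the RefSeq table and reads towards the start site, with matches in capitals to CTGGGAA (STAT3, found on the opposite strand), then TGNACTTTG (HNF4) and then TTGCNNAA (C/EBP), both found on the strand shown.
F9: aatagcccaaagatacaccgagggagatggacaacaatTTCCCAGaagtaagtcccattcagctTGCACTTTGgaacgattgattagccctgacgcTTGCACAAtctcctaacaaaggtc
Over the 250 bases before the start, the HNF4 letters were found in 1 of 28 hepatocyte-made members with a promoter in the table and in 1.21% of 27025 mouse promoters. A match is a description of the letters and not a binding site.

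Of the tissue factor and common pathway genes, 4 of 9 fell and none rose in KO. F7, the protease that tissue factor activates, had log2 levels of 2.01 in KO and 3.56 in WT after ENU, and 2.20 in KO and 3.38 in WT on vehicle (-1.36 ± 0.20, adjusted p = 0.0204). F5, the cofactor of the prothrombinase complex, stood at 2.28 in KO and 3.29 in WT after ENU, and 2.37 in KO and 3.66 in WT on vehicle (-1.15 ± 0.19, adjusted p = 0.0250). In both genes the 2 KO samples lay below the 2 WT samples. F2, prothrombin, fell by 0.87 ± 0.18 (adjusted p = 0.0362), while F10, the protease that cleaves it, gave -0.74 ± 0.19 with an adjusted p of 0.0534. F13b, the carrier subunit of the fibrin-crosslinking factor XIII, did not pass the test (-0.57 ± 0.24, adjusted p = 0.147), and its KO minus WT difference was -0.24 after ENU and -0.89 on vehicle. F3, tissue factor itself, which many non-hepatocyte cells make, lay on the other side at 0.52 ± 0.22 (adjusted p = 0.136).

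Of the 3 fibrinogen chains, which assemble into 1 plasma protein, Fga fell and the other two did not pass the test; differences between the chains were not tested. Fga, the alpha chain, had log2 levels of 4.89 in KO and 6.38 in WT after ENU, and 4.87 in KO and 5.59 in WT on vehicle. WT ENU thus stood highest and the 2 KO samples were nearly level, so that Fga was 2.81-fold lower in KO after ENU and 1.65-fold lower on vehicle (-1.11 ± 0.27, adjusted p = 0.0473). That call ended when any of 5 arrays was left out, with an adjusted p between 0.0506 and 0.0556. Fgb, the beta chain, had 9.14, 9.62, 8.99 and 9.25 in KO ENU, WT ENU, KO vehicle and WT vehicle, and Fgg, the gamma chain, had 8.60, 9.36, 8.64 and 9.18 in the same groups. Neither passed the test (adjusted p = 0.202 for Fgb and 0.0686 for Fgg), although in both the KO samples lay below the WT samples; Fgb lay above 0 with quantile normalization. For all 3 chains WT ENU was the highest of the 4 groups, as the plot of fibrinogen chains, plasminogen activators and factor D shows.

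The bases before the start sites of the fibrinogen chains are shown because the chains are transcribed from neighbouring genes, of which Fga alone fell. Those of F13b, which lies on another chromosome, are shown beside them. They come from the RefSeq table of GRCm38.p6, read 5′ to 3′ on the gene's strand and end at the base before the start, with matches on either strand in capitals to GTTAATNAT (HNF1), TTGCNNAA (C/EBP) and CTGGGAA (STAT3). Fga lies at chr3:83026033-83026152 (+), Fgb at chr3:83049864-83049983 (-), Fgg at chr3:83007604-83007723 (+) and F13b at chr1:139501587-139501706 (+).
Fga: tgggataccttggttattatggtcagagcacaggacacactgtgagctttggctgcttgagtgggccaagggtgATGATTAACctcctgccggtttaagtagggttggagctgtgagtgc
Fgb: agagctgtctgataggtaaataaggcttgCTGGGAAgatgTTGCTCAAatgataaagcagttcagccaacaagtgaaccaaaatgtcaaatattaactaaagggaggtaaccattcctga
Fgg: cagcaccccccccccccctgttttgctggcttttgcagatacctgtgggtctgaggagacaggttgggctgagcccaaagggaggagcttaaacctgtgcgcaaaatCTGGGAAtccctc
F13b: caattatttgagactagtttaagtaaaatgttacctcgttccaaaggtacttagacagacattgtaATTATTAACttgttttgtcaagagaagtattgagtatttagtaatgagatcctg
The HNF1 letters stand in capitals in Fga and F13b, the STAT3 letters in Fgb and Fgg, and the C/EBP letters in Fgb; Fga had a C/EBP match further upstream. Across the 28 hepatocyte-made members with a promoter in the table, HNF1 letters were found in 4 (0.781% of all promoters), C/EBP letters in 8 (9.55%) and STAT3 letters in 5 (9.08%).

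**Figure D2:**
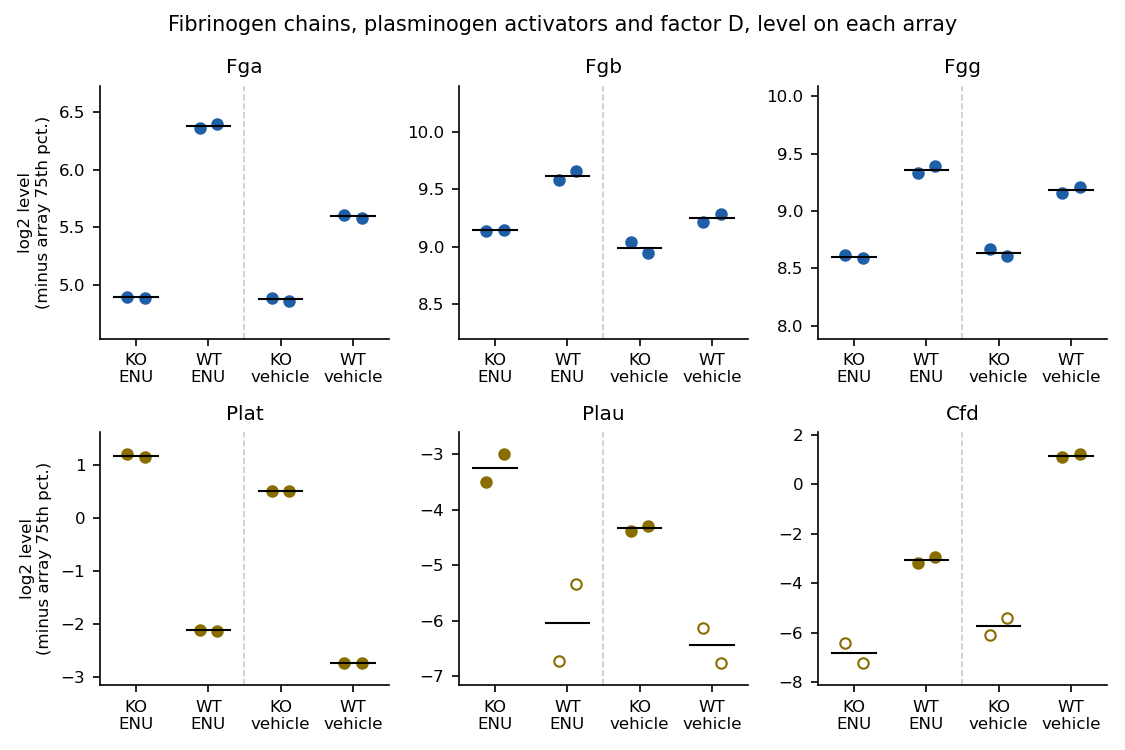
Log2 level minus the array's 75th percentile (vertical axis) on each of the 8 arrays for Fga, Fgb, Fgg, Plat, Plau and Cfd; points are arrays, bars the mean of a group's 2 arrays, and open points mark groups not well above background. WT ENU is the highest group for each fibrinogen chain, Plat lies higher in KO, and Cfd stands above 0 in WT vehicle alone.

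Vwf, the carrier of F8 made by endothelium and megakaryocytes, had log2 levels of 2.05 in KO and 1.47 in WT after ENU, and 2.16 in KO and 1.33 in WT on vehicle. Both KO samples lay above both WT samples, but the difference of 0.71 ± 0.19 did not pass the test (adjusted p = 0.0599); it did with quantile normalization, with normexp background correction and among probes above background on all arrays (adjusted p = 0.0486, 0.0265 and 0.0332). Of 9 megakaryocyte and platelet markers 2 rose and 2 fell, where 16.9% of all genes rose and 15.3% fell. Their summed level was 6.52 to 6.59 in KO and 2.19 to 2.22 in WT after ENU, and 3.84 to 3.86 in KO and 2.34 to 2.35 in WT on vehicle. The median log2 difference of the 9 markers was 0.65, with 7 above 0 and 2 below. With normexp it was -0.07, with 4 above 0 and 5 below.

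Among the anticoagulants, Proz and Proc fell. Proz, protein Z, the cofactor through which a serpin inhibits F10, had log2 levels of 6.38 in KO and 7.70 in WT after ENU, and 6.40 in KO and 7.70 in WT on vehicle (-1.31 ± 0.18, adjusted p = 0.0183). Proc, protein C, which inactivates the cofactors F5 and F8, stood at 6.73 in KO and 7.76 in WT after ENU, and 6.88 in KO and 7.97 in WT on vehicle (-1.06 ± 0.18, adjusted p = 0.0254). In both genes KO and WT were apart and the 2 treatments nearly level. Pros1, protein S, the cofactor of protein C, is also made by endothelium and gave -0.30 ± 0.18 (adjusted p = 0.264). Tfpi, the inhibitor of tissue factor made mainly by endothelium, gave 0.69 ± 0.23 (adjusted p = 0.0881) on its brightest probe and passed the test when its probes were averaged (1.31, adjusted p = 0.0200).

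In the clot-dissolving system the plasminogen activator Plat rose in KO, and of the hepatocyte products Plg fell. Plat, tissue plasminogen activator, a protease of endothelial and other cells, had log2 levels of 1.17 in KO and -2.11 in WT after ENU, and 0.51 in KO and -2.73 in WT on vehicle. KO stood 9.74-fold above WT after ENU and 9.42-fold above it on vehicle (3.26 ± 0.18, adjusted p = 0.0101). Plau, urokinase, was well above background in KO, at -3.25 in KO ENU and -4.34 in KO vehicle, but not in WT, where its signals were -6.04 in WT ENU and -6.45 in WT vehicle. It was at least 2.84-fold higher in KO after ENU, against the lowest signals that were well above background, and no such bound could be set on vehicle. The fit, which sets these values against background signals in WT, gave an adjusted p of 0.0125, and 0.333 with normexp background correction. The other Plau probe was not well above background on any array, in KO or WT, so the call rests on a single probe. Plg, plasminogen, the substrate of both activators, fell by 0.80 ± 0.19 (adjusted p = 0.0464), a call that ended when any of 3 arrays was left out (adjusted p = 0.0509 to 0.0547). Cpb2, the carboxypeptidase that protects fibrin from plasmin, gave -0.65 ± 0.18 (adjusted p = 0.0637).

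Beside Plat and Plau, markers of several non-hepatocyte cell types rose in KO: 7 of 7 measured neutrophil markers, 5 of 6 cholangiocyte markers and 4 of 9 stellate cell markers, with none falling. Of all genes 16.9% rose and 15.3% fell. Endothelial markers did not rise: of 13, none rose and 1 fell, with a median log2 difference of -0.08. Their summed level was lower in KO in both treatments, as given above. The summed neutrophil level was 48.3 to 48.9 in KO and 6.82 to 6.94 in WT after ENU, and 34.8 to 35.5 in KO and 4.42 to 4.43 in WT on vehicle. For cholangiocytes it was 52.6 to 52.7 in KO and 8.73 to 8.93 in WT after ENU, and 58.9 to 60.2 in KO and 6.35 to 6.46 in WT on vehicle, and for stellate cells 196.7 to 198.5, 131.1 to 133.1, 170.4 to 174.6 and 145.7 to 146.5 in the same groups. The part of these cells in the levels of Plat and Plau was not tested.

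In the classical complement pathway all 3 C1q chains rose in KO while C1s, C1ra and C4bp fell. C1qa had log2 levels of 4.31 in KO and 3.25 in WT after ENU, and 3.34 in KO and 2.04 in WT on vehicle (1.18 ± 0.19, adjusted p = 0.0232). C1qb stood at 4.05 in KO and 2.71 in WT after ENU, and 2.9996 in KO and 1.91 in WT on vehicle (1.22 ± 0.19, adjusted p = 0.0226). C1qc stood at 4.71 in KO and 3.71 in WT after ENU, and 4.32 in KO and 2.98 in WT on vehicle (1.17 ± 0.20, adjusted p = 0.0255). For each chain KO lay above WT within a treatment, KO ENU was the highest group and WT vehicle the lowest. The rise was between 2.00-fold and 2.54-fold after ENU and between 2.12-fold and 2.53-fold on vehicle.

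Most macrophage markers stood higher in the livers with more C1q mRNA. Of 15 Kupffer cell and macrophage markers 9 rose and none fell in KO, all 15 were detected in each group, and their summed level was 422.5 to 423.2 in KO and 159.2 to 161.8 in WT after ENU, and 240.9 to 245.3 in KO and 96.2 to 97.3 in WT on vehicle. The groups stood in the same order for each C1q chain, with KO vehicle between KO ENU and WT ENU. Adgre1, the macrophage antigen F4/80, had log2 levels of 3.20 in KO and 1.98 in WT after ENU, and 2.04 in KO and 1.09 in WT on vehicle. Of the 15 markers 2 lay below 0, Mrc1 at -0.08 ± 0.18 and the scavenger receptor Cd163 at -0.93 ± 0.24 (adjusted p = 0.734 and 0.0559). Cd163 had log2 levels of -1.20 in KO and 0.06 in WT after ENU, and -0.15 in KO and 0.47 in WT on vehicle, and 1 marker fell with normexp and with median centring. The part of macrophage number in the C1q levels was not tested. Of the 2 C1q chains with a promoter in the table, C1qc held the letters GAGGAAGT of the myeloid factor PU.1, 195 bases before its start, and 2.44% of all promoters held them.

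Of the 4 hepatocyte-made classical components 3 fell. C1s, the protease that cleaves C4 and C2, had log2 levels of 4.29 in KO and 5.45 in WT after ENU, and 4.26 in KO and 5.43 in WT on vehicle (-1.16 ± 0.18, adjusted p = 0.0218). C1ra, which activates C1s, fell by 0.85 ± 0.19 (adjusted p = 0.0395). C4bp, the plasma inhibitor that binds C4b, had log2 levels of 5.49 in KO and 6.97 in WT after ENU, and 6.27 in KO and 6.98 in WT on vehicle. KO ENU was the lowest group by a clear margin and the 2 WT samples were level (-1.09 ± 0.26, adjusted p = 0.0484), and the call ended when any of 5 arrays was left out (adjusted p = 0.0510 to 0.0578). C2, the protease zymogen of the classical convertase, gave -0.34 ± 0.21 (adjusted p = 0.278), and lay above 0 with quantile normalization.

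In the lectin pathway 3 of 4 genes fell in KO. Masp2, the lectin pathway's C4-cleaving protease, had log2 levels of 4.24 in KO and 6.14 in WT after ENU, and 4.72 in KO and 6.51 in WT on vehicle, 3.72-fold lower in KO after ENU and 3.46-fold lower on vehicle (-1.84 ± 0.18, adjusted p = 0.0123). The mannose-binding lectins, which recognise microbial sugars, fell together. Mbl1 had 2.65 in KO and 4.12 in WT after ENU, and 2.53 in KO and 3.83 in WT on vehicle (-1.38 ± 0.19, adjusted p = 0.0176). Mbl2 had 6.83 in KO and 7.98 in WT after ENU, and 6.39 in KO and 7.66 in WT on vehicle (-1.21 ± 0.18, adjusted p = 0.0210). KO and WT did not overlap for any of these 3 genes, which is a description with no test. Masp1, whose gene gives several splice forms, did not pass the test on its brightest probe (-0.31 ± 0.20, adjusted p = 0.286), and its other probes are described below.

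None of the central and alternative pathway genes made by hepatocytes passed the test, and all 3 lay above 0 with quantile normalization. C3, on which all pathways converge, had log2 levels of 9.34 in KO and 9.73 in WT after ENU, and 9.40 in KO and 9.84 in WT on vehicle. Cfb, the protease subunit of the alternative convertase, had 7.46 in KO and 7.86 in WT after ENU, and 7.40 in KO and 8.01 in WT on vehicle. Cfi, the protease that cleaves C3b and C4b, had 7.30 in KO and 7.80 in WT after ENU, and 7.14 in KO and 7.65 in WT on vehicle. In all 3 both KO samples lay below both WT samples, by no more than 0.61 on the log2 scale within a treatment, and the tests gave adjusted p of 0.149 for C3, 0.112 for Cfb and 0.102 for Cfi.

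Cfd, factor D, the serine protease that cleaves factor B and a major product of fat cells, gave the widest range of the 45 genes. It had log2 signals of -6.83 in KO and -3.06 in WT after ENU, and -5.75 in KO and 1.15 in WT on vehicle. KO was not well above background in either treatment, WT vehicle was the highest group, and WT ENU stood between. Cfd was at least 4.77-fold lower in KO after ENU and at least 68.7-fold lower on vehicle, and the fit, which takes background signals for KO, gave an adjusted p of 0.0212. Within WT it was 18.4-fold lower after ENU than on vehicle. Of 6 adipocyte markers, Adipoq, Lep and Plin1 were not well above background on any array and Retn did not pass the filter. The other two can also be made by hepatocytes: Car3 fell (-2.96 ± 0.30, adjusted p = 0.0125) and Cidec rose (1.75 ± 0.19, adjusted p = 0.0137), and the summed level of the pair was 41.2 to 41.7 in KO and 427.6 to 435.9 in WT after ENU, and 92.5 to 94.4 in KO and 299.3 to 302.3 in WT on vehicle. Cidec was lower after ENU, as Cfd was in WT, with an ENU difference of -4.61 in KO and -4.89 in WT, while that of Car3 was -0.36 in KO and 0.59 in WT. The part of fat cells in the Cfd level was not tested.

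All 6 terminal components fell in KO, and in each treatment all 6 were past 2-fold lower; 4 of the 6 fell with quantile normalization. Their median log2 difference was -2.20 over both treatments, -2.52 after ENU and -1.73 on vehicle, against -1.09, -1.03 and -0.94 for all 35 hepatocyte-made genes and -0.12, -0.10 and -0.14 for all genes. C6, the component that binds C5b, had log2 levels of 1.03 in KO and 4.46 in WT after ENU, and 2.36 in KO and 4.47 in WT on vehicle. It was 10.8-fold lower in KO after ENU and 4.32-fold lower on vehicle (-2.77 ± 0.38, adjusted p = 0.0182). C5, named Hc in mouse, whose cleavage starts the pore, stood at 5.27 in KO and 7.78 in WT after ENU, and 6.49 in KO and 7.87 in WT on vehicle (-1.94 ± 0.34, adjusted p = 0.0262). In both genes the WT samples were level and KO ENU lay below KO vehicle.

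C8 is built from alpha, beta and gamma chains encoded by separate genes. C8a had log2 levels of 3.58 in KO and 5.98 in WT after ENU, and 4.44 in KO and 6.05 in WT on vehicle (-2.005 ± 0.27, adjusted p = 0.0177). C8g, a lipocalin, stood at 4.09 in KO and 7.11 in WT after ENU, and 5.19 in KO and 7.03 in WT on vehicle (-2.43 ± 0.35, adjusted p = 0.0192). C8b stood at 2.84 in KO and 5.36 in WT after ENU, and 2.82 in KO and 5.10 in WT on vehicle (-2.40 ± 0.19, adjusted p = 0.0105). The beta chain was thus as low in KO vehicle as in KO ENU, while the alpha and gamma chains were lower in KO ENU. C9, which polymerises into the pore, had 1.60 in KO and 3.82 in WT after ENU, and 2.56 in KO and 3.83 in WT on vehicle (-1.74 ± 0.30, adjusted p = 0.0257). With quantile normalization C6, C8a, C8b and C8g fell, C5 and C9 did not pass the test (adjusted p = 0.0928 and 0.0525), and all 6 lay below 0.

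**Figure D3:**
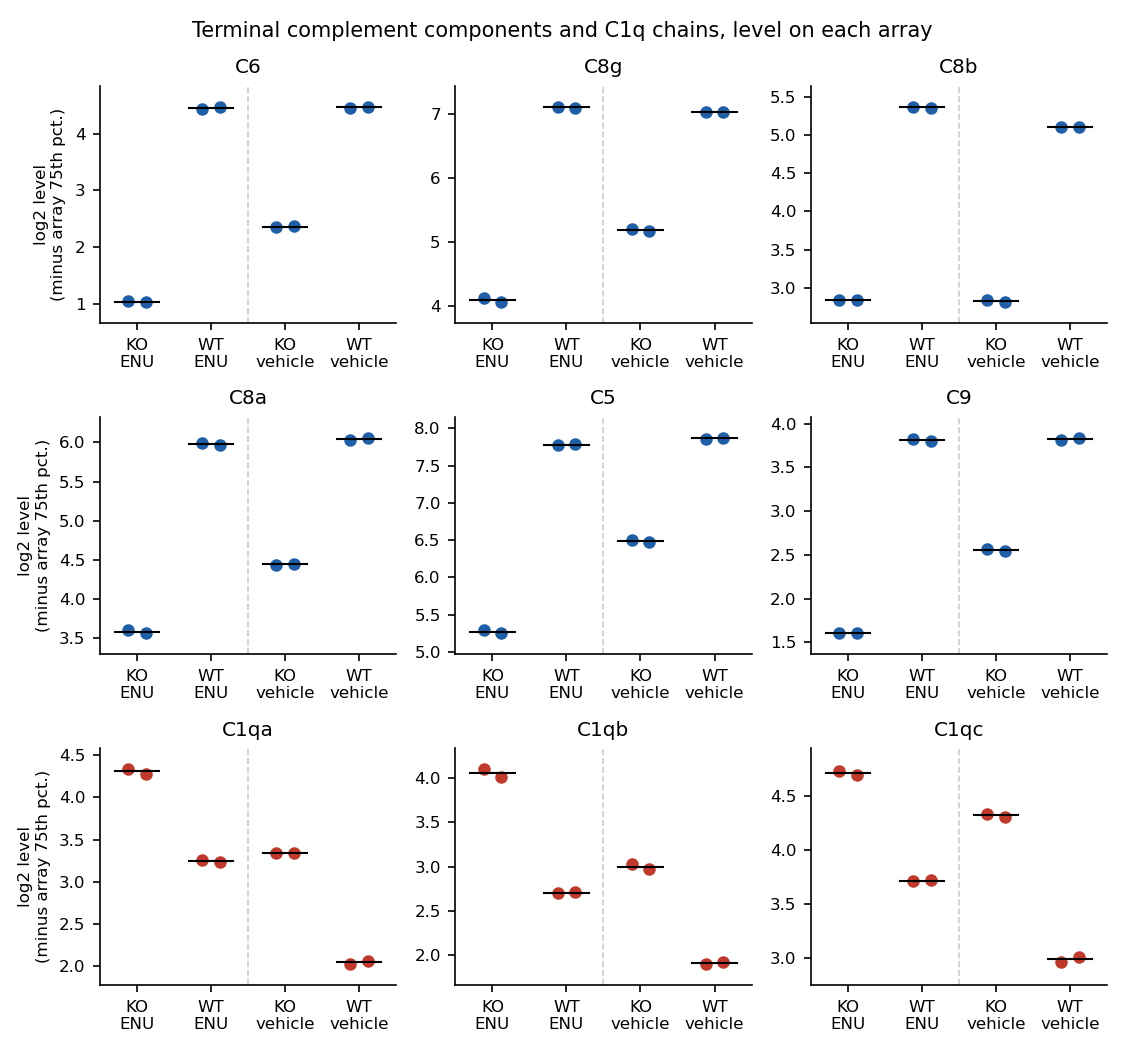
Log2 level minus the array's 75th percentile (vertical axis) on each of the 8 arrays for 6 terminal complement genes and the 3 C1q chains; points are arrays and bars the mean of a group's 2 arrays. KO lies below WT for each terminal gene and above WT for each C1q chain, also with quantile normalization, and KO ENU is the lowest group for C6, C8g, C8a, C5 and C9.

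The stretches before C5 and C6 are shown because these were among the terminal genes lower in KO ENU than in KO vehicle, and that before C4bp because it shared this order; capitals mark GTTAATNAT (HNF1) on either strand. They come from the RefSeq table of GRCm38.p6 on the gene's strand, C5 from chr2:35061413-35061532 (-), C6 from chr15:4727090-4727209 (+) and C4bp from chr1:130661619-130661738 (-).
C5: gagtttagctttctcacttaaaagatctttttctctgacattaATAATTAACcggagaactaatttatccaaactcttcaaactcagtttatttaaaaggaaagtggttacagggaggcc
C6: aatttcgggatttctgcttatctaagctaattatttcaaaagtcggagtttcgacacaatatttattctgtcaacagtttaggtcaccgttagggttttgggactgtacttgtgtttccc
C4bp: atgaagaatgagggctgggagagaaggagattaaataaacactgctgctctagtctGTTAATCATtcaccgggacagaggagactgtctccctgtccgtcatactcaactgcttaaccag
C5 and C4bp each held the HNF1 letters, as did Fga and F13b above, and C6 held none of the motifs searched. Among the 6 terminal genes, the HNF1 letters were found in 1 and the C/EBP letters in 1.

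For ENU against vehicle the fit called none of the 18120 genes (0% higher and 0% lower, smallest adjusted p = 0.159). An unadjusted p under 0.05 was found for 3989 of the 18120 genes and for 8 of the 45, a smaller share than among all genes. With normexp, and among probes above background on all arrays, 3 genes were called lower, none of the 45. Within KO, 4 of the 45 genes were past 2-fold lower and 2 past 2-fold higher after ENU, where 5.42% and 4.34% of all genes were. Those lower were C6, C5, C8g and Cfd, the last below background in both KO groups, and those higher were Plau and C1qb. Within WT, Cfd was past 2-fold lower and C1qa past 2-fold higher, where 5.49% and 7.2% of all genes were. The median ENU difference of the 35 hepatocyte-made genes was 0.02 in KO and -0.01 in WT.

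In KO, 5 of the 6 terminal genes had lower levels after ENU than on vehicle, while in WT all 6 lay close to level. The median ENU difference of all genes was -0.06 in KO and -0.04 in WT. The ENU minus vehicle difference was -1.33 in KO and -0.01 in WT for C6, -1.22 and -0.09 for C5, and -1.09 and 0.08 for C8g. For C9 it was -0.95 in KO and -0.01 in WT, for C8a -0.86 and -0.07, and for C8b 0.01 and 0.26. C8b was the terminal gene that was level in KO. Counted as the ENU difference in KO minus that in WT, 3 of the 45 genes (C6, C8g and C5) were past 2-fold lower. Cfd was past 2-fold higher, with both KO groups below background. Of all genes 6.46% were lower and 4.33% higher, so the count of lower genes among the 45 was near the share of all genes. With 1 RNA sample a group this difference of differences could not be tested.

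Outside the terminal pathway, C4bp showed the same order, with an ENU difference of -0.78 in KO and -0.02 in WT. Fga was level in KO and higher in WT, with ENU differences of 0.02 in KO and 0.79 in WT, and F13b stood at 0.96 in KO and 0.31 in WT. F9 was lower after ENU in both genotypes, by 0.84 in KO and 0.45 in WT on the log2 scale, and Klkb1 was higher in both, by 0.63 in KO and 0.51 in WT. The C1q chains were higher after ENU in both genotypes: C1qa by 0.97 in KO and 1.21 in WT, C1qb by 1.05 and 0.79, and C1qc by 0.39 and 0.73. The median ENU difference of the 15 macrophage markers was 0.61 in KO and 0.86 in WT, and its part in the C1q levels was not tested.

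**Figure D4:**
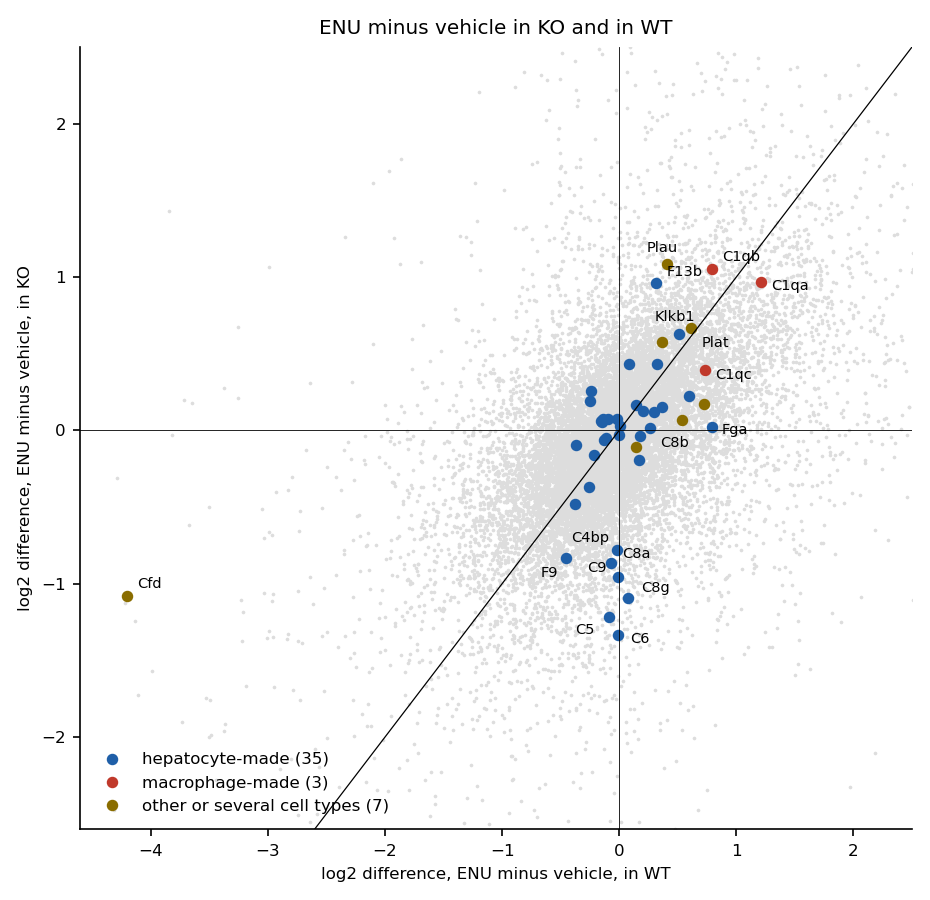
Log2 difference between ENU and vehicle in KO (vertical axis) against that in WT (horizontal axis); coloured points are the 45 genes by usual cell source, grey points the 18120 genes measured that lie within the axes, and the diagonal marks equal differences. C6, C5, C8g, C9, C8a and C4bp lie near 0 in WT and below 0 in KO, the C1q chains lie above 0 in both, and Cfd lies at -4.21 in WT, its KO values being below background.

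Probes to separate parts of a gene were compared where more than 1 passed the filter, which was so for 15 genes. Of 20 further probes, 15 had the sign of the brightest probe in KO against WT in both treatments, and the 5 that did not belonged to C2, C3 and Masp1. For Masp1 the brightest probe, at chr16:23108101-23108160 (mm7, as the files give it), gave KO minus WT differences of -0.14 after ENU and -0.49 on vehicle. A further probe, named Masp1 by the array's symbol, at chr16:23127084-23127143 gave 1.30 after ENU and 0.999 on vehicle, with log2 levels of 5.17 in KO and 3.87 in WT after ENU, and 4.43 in KO and 3.43 in WT on vehicle. A dimmer probe at chr16:23138373-23138432, also named by the array's symbol, gave 1.13 and 0.27 in the same order. The remaining probe, at chr16:23110952-23111011, gave 0.07 after ENU and -0.33 on vehicle. It was named by its RefSeq transcript, as the brightest probe was. Averaged over its probes, Masp1 lay above 0 (0.35, adjusted p = 0.266).

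The brightest C3 probe, at chr17:55414567-55414626, had ENU differences of -0.05 in KO and -0.11 in WT. The further C3 probe, at chr17:55435522-55435679, gave 1.09 in KO and 0.98 in WT, and its KO minus WT differences were 0.27 after ENU and 0.16 on vehicle. The 2 probes thus differed in the ENU comparison as well as in the sign of the KO comparison. The further C3 probe was also much dimmer, with log2 levels of 2.47 to 3.72 over the groups, against 9.34 to 9.84 for the brightest. The further probes of Plat (3.97 after ENU and 4.24 on vehicle), Masp2 (-1.77 and -1.94 for 1, -1.37 and -1.68 for the other) and F9 (-1.80 and -1.32) gave KO minus WT differences of the same sign as the brightest. For Tfpi the 2 further probes gave 1.51 and 1.36 after ENU and 2.12 and 1.49 on vehicle, above the 0.42 and 0.97 of the brightest.

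**Figure D5:**
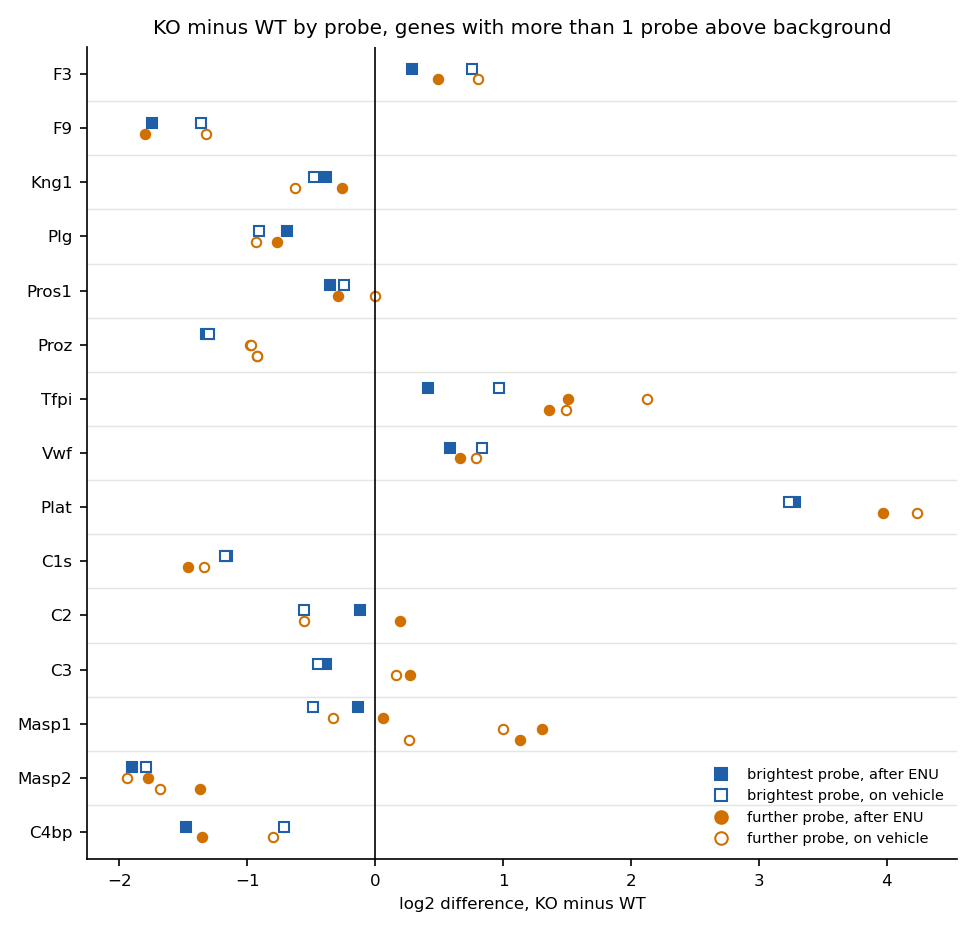
Log2 difference in KO against WT (horizontal axis) for each probe of the 15 genes with more than 1 probe passing the filter; blue squares are the brightest probe and orange circles further probes, filled after ENU and open on vehicle. The further probes of Masp1 reach 1.30 where its brightest probe lies below 0, and the C3 probes lie on either side of 0.

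Of 63 other genes of the same pathways, 56 were measured, and 14 rose and 18 fell in KO (12 and 8 with quantile normalization). Of all genes 16.9% rose and 15.3% fell (15% and 10.6% with quantile normalization). The median log2 difference of the 56 genes was -0.24, against -0.12 for all genes. Those named are a protease inhibitor, a clot-stabilising enzyme and a receptor higher in KO. A2m, the broad protease inhibitor alpha-2-macroglobulin, was at least 10.6-fold higher in KO after ENU and at least 4.20-fold higher on vehicle (adjusted p = 0.0101), WT not being well above background. F13a1, the catalytic subunit of factor XIII and a product of macrophages and megakaryocytes, was at least 5.98-fold higher in KO after ENU and at least 9.89-fold higher on vehicle (adjusted p = 0.0248), WT again not being well above background. A2m and F13a1 passed the filter through KO alone. The fit sets both against background signals in WT, so their calls rest on background, as for Plau. Plaur, the urokinase receptor, stood 6.17-fold above WT in KO after ENU and 16.5-fold above it on vehicle (adjusted p = 0.0153).

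Among the largest falls outside the 45 were those of complement regulators and a collectin. Susd4, a membrane inhibitor of complement, had log2 levels of -3.90 in KO and 1.30 in WT after ENU, and -2.57 in KO and 1.69 in WT on vehicle (-4.73 ± 0.30, adjusted p = 0.0101). Cd59b, which blocks the terminal pore on the cell's own membrane, was 9.25-fold lower in KO after ENU and 5.32-fold lower on vehicle (adjusted p = 0.0119). Colec12, a collectin of endothelium, was 3.65-fold lower in KO after ENU and 2.82-fold lower on vehicle (adjusted p = 0.0154).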

How the data were processed

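Liver RNA was hybridised to 8 one-colour arrays, and the deposited files are scanner output whose unit is the intensity of each spot after background subtraction by Feature Extraction (10.7.1.1 per the file headers, 10.5.1 per the submitters' processing notes). From these, spots marked as outliers were left out, log2 intensity minus each array's 75th percentile was taken, spots of a probe were averaged, probes were kept where 1 group or more had them well above background on both its arrays, and the brightest probe of each gene was used, giving 18120 genes. The 2 arrays of a group differed by about as much as spot noise and were averaged to 1 sample. KO and WT, and ENU and vehicle, were compared with limma 3.58.1 in R 4.3.3 (genotype + treatment, 1 residual degree of freedom, Benjamini-Hochberg adjustment over all genes). No group had a replicate sample. P-values and SEs thus rest on how far the 4 RNA samples depart from additive effects of genotype and treatment. They do not measure the spread between mice. Differences between 2 groups were counted past 2-fold without a test. Statements that KO and WT samples did not overlap are descriptions too, and the share of all genes for which this held is not given. "At least" folds set the bright group against the lowest signal well above background. All 45 members are described, and of a list of 63 other pathway genes those with the 4 largest differences each way were to be named, of which some are not reported here. The members and lists were chosen with earlier results of these data known. Alternatives were normexp background correction (offset 50), median centring, quantile normalization, both other filters, the mean of all probes, and each array left out in turn. The fit was tested on simulated data. Promoters were found for 34 of the 45 members.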

Additional observations from a re-analysis of the deposited data

How the results depend on the processing

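With quantile normalization 13 of the 45 genes fell in KO over both treatments, against 24, 13 were past 2-fold lower in KO after ENU and 8 on vehicle, against 20 and 18, and 4 were past 2-fold higher after ENU in KO, against 2. The median difference of the hepatocyte-made genes in KO against WT after ENU was -0.98 with normexp, -1.22 with median centring and -0.47 with quantile normalization, and on vehicle -0.87, -1.16 and -0.35; with arrays left out in turn it was -1.06 to -1.004 after ENU and -0.94 to -0.93 on vehicle. Their median ENU difference in KO was 0.18 with quantile normalization and 0.055 with the mean of all probes, and in WT 0.046 with normexp, -0.058 with median centring and 0.14 with quantile normalization. Past 2-fold higher after ENU in KO was 1 gene with normexp and 1 among probes above background on all arrays, where 0 were lower in WT; without array a of WT ENU 2 were higher in WT, and leaving out each array gave 1 to 2. With arrays left out, 20 to 24 genes fell and 5 rose.

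Over both treatments, quantile normalization turned F10 (0.025), F12 (0.43), Fgb (0.14), Kng1 (0.20), Cpb2 (0.067), C2 (0.31), C3 (0.050), Cfb (0.22), Cfi (0.27) and Masp1 (0.22) above 0. The mean of all probes turned Masp1 (0.35), and normexp turned Plau on vehicle (-0.034). The cause was not tested for any of these. F10, Fgg and Cpb2 passed the test with normexp, with median centring and among probes above background on all arrays. Cfi passed it with median centring (adjusted p = 0.0449). Without a filter on dim probes, F2, F8, Fga, Plg, C1ra and C4bp did not pass the test (adjusted p = 0.0542 to 0.0673). That fit held 27594 genes instead of 18120, and why these calls ended was not tested. The share of called genes that rose was 52.4% here, 36.6% with normexp, 35.9% with median centring and 58.5% with quantile normalization. No paired analysis was possible because both arrays of a group counted as 1 sample. Signals near background, as for Plau in WT and Cfd in KO, give bounds alone.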
